A study of Mus musculus with 12 samples.

Results

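The proteasome genes described here are the protein-coding genes of the input RNA table whose symbol begins with Psm, one letter from a to g and a digit. The rule was met by 47 of 14852 listed genes, of which 11830 were protein-coding. ID8 cells are a mouse line that stems from the epithelium of the ovary surface and forms ovarian tumours. The 4 kinds of library made from them had 3 libraries each: ac4C immunoprecipitates of cisplatin-treated cells, input RNA of cisplatin-treated cells, ac4C immunoprecipitates of control cells and input RNA of control cells. Cisplatin is a platinum drug that crosslinks DNA, and ac4C is N4-acetylcytidine, a base modification of RNA that an antibody can enrich. The labels give no dose or time for cisplatin, no passage of the line and no statement that the libraries came from separate cultures, so p-values measure only the spread between these libraries. Of the whole series, 12 libraries, the 6 input libraries give a value per gene and library, in FPKM (fragments scaled by transcript length and by the mapped fragments of the library). The immunoprecipitates enter only through a table of peaks without a value per library.

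The proteasome degrades proteins marked with ubiquitin. Its 20S core is a barrel whose outer alpha rings gate the entrance and whose inner beta rings hold the proteolytic sites. The 19S particle caps the barrel: its lid and ubiquitin receptors bind and strip the tagged protein, and the ATPases of its base unfold and thread it. Interferon-inducible subunits can replace the constitutive catalytic ones and form the immunoproteasome, which shapes peptides for MHC class I, and PA28 or PA200 can cap the core in place of the 19S particle. Cells keep the subunits in balance partly through shared transcription factors, among them Nfe2l1, which raises subunit transcription when proteasome activity falls short.

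By structure the members were 7 alpha ring genes, 7 beta ring genes, 2 immunoproteasome genes, 9 base genes, 8 lid genes, 3 assembly chaperones of the 19S particle, 4 assembly chaperones of the 20S core, 4 activators and 1 inhibitor. The 2 remaining matches were Psmc3ip, a recombination factor named for binding Psmc3, and Psme2b, a near-copy of the activator gene Psme2. Psma8, Psmb9 and Psmb11, the testis form of an alpha subunit, an inducible catalytic subunit and a thymus form, had no row in the table. Reads recovered from the FPKM steps came to 22201704 to 30159427 per cisplatin library and 20682920 to 21900044 per control library. A member had 18 to 17777 reads in a library, with a median of 1882.5. The FPKM values summed to 275195 to 278678 in cisplatin and 258545 to 259158 in control libraries, so the libraries do not share a common sum. Replicates differed more among cisplatin libraries (chi-square per gene 7.72 to 15.87 between pairs) than among control libraries (2.36 to 3.13). Of 10 markers of ovarian surface epithelium and mesothelium, all 10 were listed and 7 had at least 1 FPKM in every library, with a summed level of 2955 to 3302 FPKM in cisplatin and 2098 to 2130 FPKM in control libraries. The 3 keratins Krt8, Krt18 and Krt19 made up most of that sum and were higher in cisplatin libraries, as were Msln and Upk1b, while the means of Wt1, Lrrn4, Upk3b, Muc16 and Krt7 were lower. Wt1 averaged 12.4 FPKM in cisplatin and 45.1 FPKM in control libraries, and Krt7 was near 0, at 0.0105 FPKM in cisplatin and 0.178 FPKM in control libraries. Of 8 leukocyte markers, 1 was listed, Cd68, at 7.50 to 9.72 FPKM in cisplatin and 2.22 to 2.57 FPKM in control libraries, and of 4 endothelial markers 1 was listed, Tek, at 2.55 to 2.81 FPKM in cisplatin and 0.723 to 0.931 FPKM in control libraries. Their part in the results below was not tested.

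Promoter sequence is given first for genes of the 2 directions described below, because ETS-family sites are a common feature of housekeeping promoters. RefSeq windows of GRCm38.p6, from 250 bases before to 50 bases after a gene start, matched 40 of 47 members in 43 windows. The 7 members without a window were Psmb1, Psmb2, Psmb7, Psmc3, Psmd3, Psmd7 and Psmg2. All but Psmb1 were called higher, so the counts by direction below leave out Psmb2, Psmc3 and Psmd3, the most positive of beta ring, base and lid. The ETS core CCGGAAG, read on both strands, was present in 16 of 43 member windows (37.2%), against 8.86% of all 32851 windows and 18.9% of 10404 windows of genes tested in input RNA. It was held by 9 of 22 members that were higher after cisplatin, 4 of 10 that were lower and 2 of 8 without a call. Capitals mark the ETS core, or its reverse complement CTTCCGG, in stretches of 60 bases upstream of the start of 4 genes that were higher and 4 that were lower. The match lay within 60 bases of the start of the window in the stretches of Psmc1, Psmd2, Psmd11, Psmc2, Psmd12, Psmd6 and Psme4, and farther out in that of Psmd4. For Psmd2 and Psmc2 that start lies inside the RefSeq span of the gene, which begins at chr16:20651122 and chr5:21785275. Psmc2 also had a window at its outer start, not shown, with a match at -84 to -78 from that start. The first 4 stretches are from genes that were higher in cisplatin libraries.
Psmc1, chr12:100110142-100110201, plus strand: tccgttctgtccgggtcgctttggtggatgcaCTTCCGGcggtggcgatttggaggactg
Psmd2, chr16:20651592-20651651, plus strand: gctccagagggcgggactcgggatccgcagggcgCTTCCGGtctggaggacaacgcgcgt
Psmd4, chr3:95042707-95042766, minus strand: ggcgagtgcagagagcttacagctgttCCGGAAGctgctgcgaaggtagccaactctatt
Psmd11, chr11:80428555-80428614, plus strand: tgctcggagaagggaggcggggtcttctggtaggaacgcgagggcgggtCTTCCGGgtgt

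The next 4 are from genes that were lower in cisplatin libraries, and the same core stands in them.
Psmc2, chr5:21786687-21786746, plus strand: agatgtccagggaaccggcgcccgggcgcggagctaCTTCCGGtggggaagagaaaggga
Psmd12, chr11:107479468-107479527, plus strand: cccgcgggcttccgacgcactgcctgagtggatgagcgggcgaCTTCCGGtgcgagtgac
Psmd6, chr14:14120958-14121017, minus strand: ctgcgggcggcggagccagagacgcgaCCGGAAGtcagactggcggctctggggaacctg
Psme4, chr11:30771695-30771754, plus strand: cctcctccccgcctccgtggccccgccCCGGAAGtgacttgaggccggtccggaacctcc

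The other motifs were also searched on both strands, each counted on its own, so that 1 stretch can match several. The antioxidant response element core TGANNNNGC, which NFE2-like factors bind, was in 24 of 43 member windows (55.8%), against 42.9% of windows of tested genes, and in 11 of 22 members that were higher, 8 of 10 that were lower and 3 of 8 without a call. The CCAAT box, CCAAT, was in 13 of 43 (30.2%), against 38.0%. The core of the interferon-stimulated response element, GAAANNGAA, was in 7 of 43 (16.3%), against 6.81%. It was held by 2 of 22 members that were higher, 3 of 10 that were lower and 2 of 8 without a call. That of the gamma-activated site, TTCNNNGAA, was in 3 of 43 (6.98%), against 6.70%. The cAMP response element TGACGTCA was in 0 of 43, against 3.17%. A match is a description of letters, not of binding. The gamma-activated site core is shown for Psmb8, the inducible subunit with the most positive ratio of levels below, in capitals.
Psmb8, chr17:34198072-34198131, plus strand: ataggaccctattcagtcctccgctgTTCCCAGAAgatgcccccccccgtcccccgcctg

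Most structural subunit genes of the proteasome changed little in size after cisplatin, and more rose than fell. Among the 47 members, 28 rose (59.6%) and 10 fell (21.3%) at a limma adjusted p under 0.05, and 9 had no call. The background is wide: of 11449 tested genes, 40.1% were called higher and 41.1% lower. The median log2 change of the members was 0.23, and that of all tested genes was -0.0028. Only 1 of 47 members, Psme2b, moved by 1 or more on the log2(FPKM + 1) scale (2.13%), while 23.9% of all tested genes did. Psmb8, at a low level, was under that limit on this scale although its mean was 4.44-fold higher. The median size of the change was 0.27 among members and 0.52 among all tested genes. The ranges of the 3 cisplatin and 3 control values did not overlap in 37 of 47 members, against 84.2% of all tested genes. The count of members by direction depends on the scaling, as does the background. With every library set to a common FPKM sum 24 rose and 14 fell, against 35.7% and 46.1% of all tested genes. After quantile normalization 23 rose and 15 fell, against 39.7% and 42.0%. Without Psmc3ip and Psme2b, 26 of 45 rose and 10 fell. Log2 changes are on the log2(FPKM + 1) scale, cisplatin minus control, which understates the change of genes with low levels. In bulk RNA, a change in the number of cells of a type and a change in RNA per cell cannot be told apart.

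**Figure D1:**
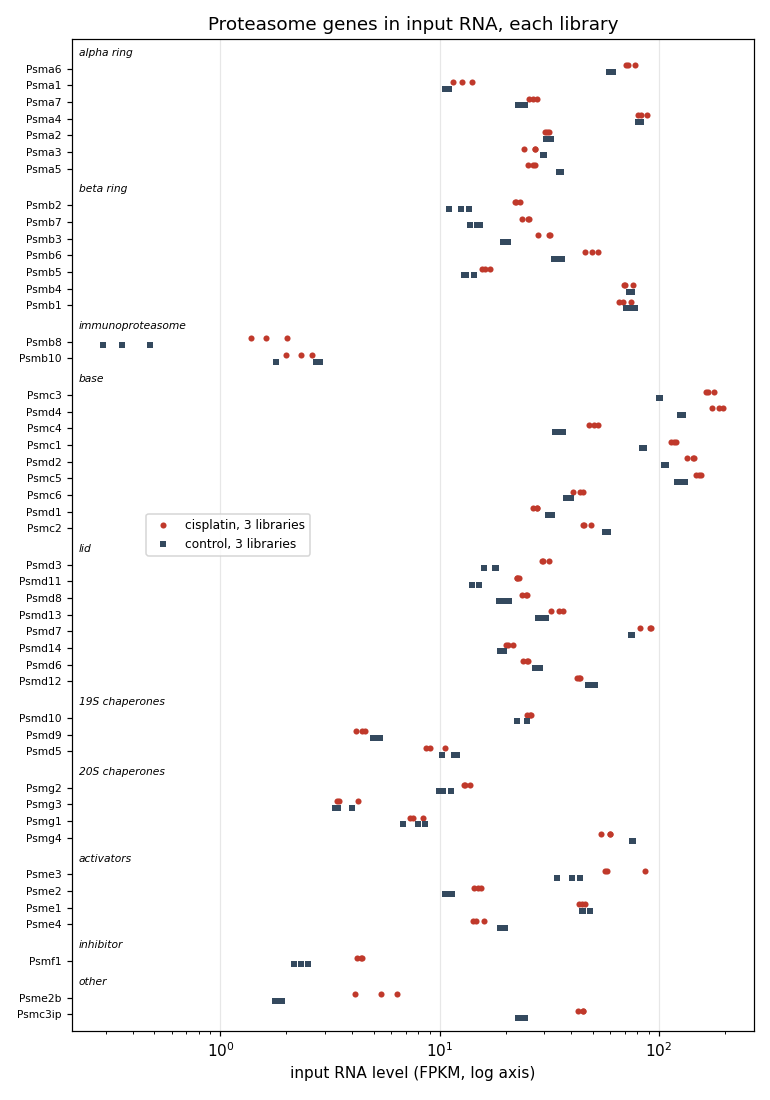
Input RNA level of the 47 proteasome genes in each library, in FPKM on a log axis, with cisplatin libraries as circles above control libraries as squares in each row, grouped by structural class and ordered by log2 change. The highest values belong to base genes, Psmd4 among them, the lowest to Psmb8, and the groups separate in 37 genes.

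The beta ring, which lines the proteolytic chamber, had 5 genes that rose, 0 that fell and 2 without a call, with a median log2 change of 0.49. That is 71.4% higher and 0% lower, against 40.1% and 41.1% of all tested genes. Psmb2, a structural beta subunit, was at 22.2, 23.4 and 22.1 FPKM in cisplatin libraries, against 12.5, 13.6 and 11.0 FPKM in control libraries. All 3 cisplatin values lay above all 3 control values, and this gene had the most positive change of the ring (log2 change 0.82 ± 0.0714 (SE), limma adjusted p = 2.41e-05). Psmb7, the trypsin-like catalytic subunit, was at 25.3, 23.9 and 25.7 FPKM in cisplatin libraries, against 15.3, 13.7 and 14.8 FPKM in control libraries. Psmb6, the caspase-like catalytic subunit, was at 52.8, 49.4 and 46.0 FPKM in cisplatin libraries, against 36.2, 34.9 and 33.2 FPKM in control libraries. Psmb5, the chymotrypsin-like subunit and the main target of proteasome inhibitor drugs, was at 17.0, 15.7 and 16.1 FPKM in cisplatin libraries, against 14.4, 12.9 and 13.2 FPKM in control libraries. The groups did not overlap in any of the 3 catalytic subunits, and the change was largest in Psmb7 (log2 change 0.74 ± 0.0498 (SE), limma adjusted p = 6.36e-06), smaller in Psmb6 (log2 change 0.49 ± 0.0563 (SE), limma adjusted p = 1.08e-04) and smallest in Psmb5 (log2 change 0.25 ± 0.0541 (SE), limma adjusted p = 0.00325). The call of Psmb5 was lost with voom and in the authors' deposited table, and differences between the catalytic subunits in their change were not tested. The structural subunit Psmb3 averaged 30.5 ± 2.10 FPKM in cisplatin and 20.2 ± 0.657 FPKM in control libraries (SD, n = 3 each). The 2 genes without a call were the structural subunits Psmb1 and Psmb4, and Psmb1 was at 74.8, 68.8 and 66.0 FPKM in cisplatin libraries, against 73.2, 77.7 and 70.7 FPKM in control libraries. The groups overlapped there (log2 change -0.08, 95% interval -0.21 to 0.05). Psmb4, at 70.2, 76.6 and 69.8 FPKM in cisplatin libraries, against 73.1, 75.3 and 73.0 FPKM in control libraries, also overlapped. With a common FPKM sum and after quantile normalization both passed as lower, as Psmb1 did with voom. Psmb1 and Psmb4 had the highest control levels of the ring, 73.9 and 73.8 FPKM, and the ring's highest mean over its lowest was 4.43 in cisplatin and 5.97 in control libraries.

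In the alpha ring, which gates the core, 3 genes rose, 2 fell and 2 had no call, with a median log2 change of 0.05. The share that rose, 42.9%, was near the 40.1% of all tested genes, and 28.6% fell, against 41.1%. Psma6 had the most positive change of the ring, at 72.2, 70.6 and 78.2 FPKM in cisplatin libraries, against 60.4, 59.5 and 62.1 FPKM in control libraries (log2 change 0.27 ± 0.0443 (SE), limma adjusted p = 7.47e-04). Psma5 had the most negative, at 26.6, 27.2 and 25.3 FPKM in cisplatin libraries, against 35.9, 35.8 and 35.2 FPKM in control libraries (log2 change -0.42 ± 0.0366 (SE), limma adjusted p = 2.44e-05). The groups were apart in both genes, in opposite directions. Psma1 and Psma7 also rose, with log2 changes of 0.22 and 0.15, and Psma3 fell, with a log2 change of -0.18. The calls of Psma1 and Psma7 were lost with a common FPKM sum, with voom and without control replicate 3, that of Psma1 also without control replicate 2 and that of Psma7 also after quantile normalization. Psma2, at 31.5, 31.0 and 30.3 FPKM in cisplatin libraries, against 32.2, 30.7 and 32.2 FPKM in control libraries, had groups that overlapped, and it passed as lower with a common FPKM sum and after quantile normalization. Groups overlapped too in Psma4, at 80.5, 83.0 and 88.0 FPKM in cisplatin libraries, against 80.4, 80.0 and 82.6 FPKM in control libraries. The median of the ring turns sign with the scaling, to -0.051 with a common FPKM sum, -0.016 with voom on recovered reads and -0.14 after quantile normalization, where Psma4 passed the test as lower (log2 change -0.16, limma adjusted p = 0.00497). Summed over the 7 genes, the alpha ring came to 281 ± 7.16 FPKM in cisplatin and 273 ± 2.57 FPKM in control libraries (SD, n = 3 each), 1.03-fold. The beta ring came to 286 ± 10.5 FPKM in cisplatin and 243 ± 6.98 FPKM in control libraries, 1.18-fold. These folds, and those of base and lid below, are not scaled to a common FPKM sum. The FPKM of all genes summed to 275195 to 278678 in cisplatin and 258545 to 259158 in control libraries, so a fold near 1 can turn with the scaling. In control libraries each alpha sum, 271 to 276 FPKM, exceeded each beta sum, 235 to 249 FPKM; in cisplatin libraries the sums overlapped, at 275 to 289 FPKM for the alpha ring and 274 to 294 FPKM for the beta ring.

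**Figure D2:**
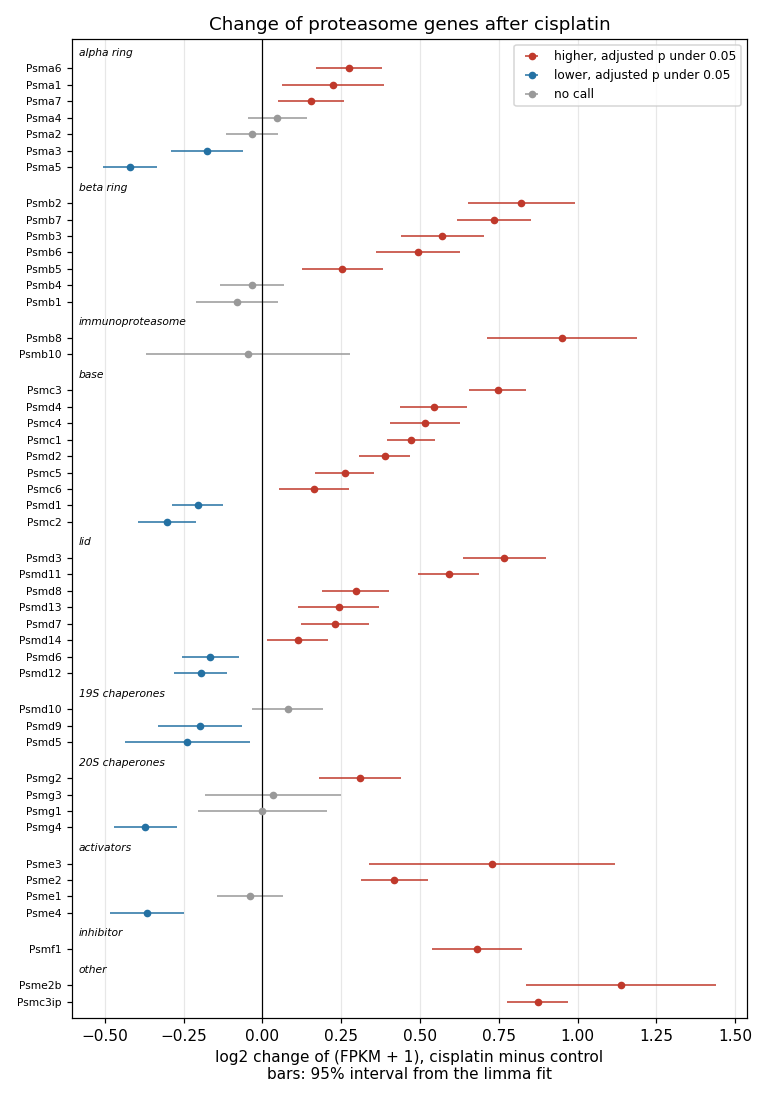
Log2 change of (FPKM + 1), cisplatin minus control, for the 47 proteasome genes by structural class, with the 95% interval of the limma fit as bars and the call by colour. With the FPKM as deposited the beta ring holds 5 higher and 0 lower genes (Psmb1 and Psmb4 pass as lower with a common FPKM sum), and genes of opposite calls stand in the alpha ring, base, lid, activators and 20S chaperones.

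The base of the 19S particle had the highest median level of the rings and 19S classes, 117 FPKM in cisplatin and 84.2 FPKM in control libraries. In it 7 genes rose (77.8%), 2 fell (22.2%) and 0 were without a call, with a median log2 change of 0.39. Of all tested genes 40.1% rose and 41.1% fell. Among the 6 ATPases, which unfold substrates and open the gate of the core, 5 rose and Psmc2 fell. Psmc3 had the most positive change, at 179, 168 and 164 FPKM in cisplatin libraries, against 102, 100.2 and 101 FPKM in control libraries. Its groups were far apart against the spread within them (log2 change 0.75 ± 0.0383 (SE), limma adjusted p = 1.71e-06). Psmc2 had the most negative, at 45.3, 45.8 and 49.2 FPKM in cisplatin libraries, against 58.6, 56.9 and 58.1 FPKM in control libraries, and its groups did not overlap either (log2 change -0.30 ± 0.0394 (SE), limma adjusted p = 2.30e-04). Psmc1 averaged 117 ± 3.32 FPKM in cisplatin and 84.2 ± 1.19 FPKM in control libraries (SD, n = 3 each), a log2 change of 0.47. Psmc4 averaged 50.7 ± 2.35 FPKM in cisplatin and 35.1 ± 1.49 FPKM in control libraries (SD, n = 3 each), a log2 change of 0.52. The log2 changes of Psmc5 and Psmc6 were smaller, at 0.26 and 0.16, and both lost their call after quantile normalization, as did Psmc6 with a common FPKM sum, with voom and without control replicate 2 or 3. The 6 ATPases form one ring with 1 copy each, and their mean levels ran from 43.2 FPKM (Psmc6) to 170.3 FPKM (Psmc3) in cisplatin libraries, and from 35.1 FPKM (Psmc4) to 127 FPKM (Psmc5) in control libraries. The ubiquitin receptor Psmd4 was at 188, 196 and 175 FPKM in cisplatin libraries, against 128, 129 and 125 FPKM in control libraries (log2 change 0.54 ± 0.0447 (SE), limma adjusted p = 1.78e-05). It had the highest mean of any member in cisplatin libraries, while in control libraries Psmd4 and Psmc5 overlapped. The scaffold subunit Psmd2 rose, averaging 141 ± 4.80 FPKM in cisplatin and 107 ± 1.40 FPKM in control libraries (SD, n = 3 each), while the other scaffold, Psmd1, fell, averaging 27.5 ± 0.562 FPKM in cisplatin and 31.8 ± 0.738 FPKM in control libraries (SD, n = 3 each). The 9 base genes summed to 935 ± 24.9 FPKM in cisplatin and 710.1 ± 9.48 FPKM in control libraries (SD, n = 3 each), 1.32-fold.

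In the lid, 6 genes rose (75.0%), 2 fell (25.0%) and 0 had no call, with a median log2 change of 0.24. Of all tested genes 40.1% rose and 41.1% fell. Psmd3, a structural lid subunit, had the most positive change, at 29.7, 29.3 and 31.6 FPKM in cisplatin libraries, against 16.0, 18.1 and 17.9 FPKM in control libraries (log2 change 0.77 ± 0.0558 (SE), limma adjusted p = 9.28e-06). Psmd11, a lid subunit whose raised level was tied to proteasome activity in human embryonic stem cells, was at 22.7, 23.1 and 22.5 FPKM in cisplatin libraries, against 15.1, 15.2 and 14.1 FPKM in control libraries (log2 change 0.59 ± 0.0412 (SE), limma adjusted p = 7.38e-06). Psmd12 had the most negative change of the lid, at 43.8, 42.2 and 43.3 FPKM in cisplatin libraries, against 51.0, 47.8 and 49.7 FPKM in control libraries (log2 change -0.20 ± 0.0357 (SE), limma adjusted p = 0.00147). The groups were apart in all 3 genes. Psmd6 also fell, with a log2 change of -0.16, while Psmd8, Psmd13 and Psmd7 rose by 0.30, 0.24 and 0.23 on the log2 scale, Psmd7 losing its call after quantile normalization. Psmd14, the deubiquitinase that strips ubiquitin from substrates, was at 20.1, 20.6 and 21.7 FPKM in cisplatin libraries, against 18.8, 19.7 and 18.9 FPKM in control libraries. The groups were next to each other without overlap, and the call rests on a narrow margin (log2 change 0.11 ± 0.0410 (SE), limma adjusted p = 0.0352): it did not pass with a common FPKM sum, after quantile normalization, with voom, in the authors' deposited table or without cisplatin replicate 3 or any 1 control library. The 8 lid genes summed to 289 ± 9.23 FPKM in cisplatin and 253 ± 1.82 FPKM in control libraries (SD, n = 3 each), 1.14-fold. Over the 17 genes of base and lid together, 13 rose (76.5%) and 4 fell (23.5%). Over the 14 genes of both core rings, 8 rose (57.1%), 2 fell (14.3%) and 4 had no call. Levels of the 14 core genes spanned 6.58-fold between the highest and the lowest mean in cisplatin and 7.55-fold in control libraries, and those of the 17 genes of the 19S particle spanned 8.95-fold in cisplatin and 8.61-fold in control libraries. Across the 47 members the log2 mean level in cisplatin libraries correlated with that in control libraries at a Pearson r of 0.96, a description over genes that share their libraries.

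The inducible catalytic subunits lay far below the constitutive ones. Psmb8, which replaces Psmb5 in the immunoproteasome, was at 1.61, 2.01 and 1.38 FPKM in cisplatin libraries, against 0.291, 0.479 and 0.355 FPKM in control libraries. Each cisplatin value was above each control value, and the mean was 4.44-fold higher (log2 change 0.95 ± 0.101 (SE), limma adjusted p = 7.25e-05). Psmb8 passed the filter of 1 FPKM in 3 libraries only through the cisplatin libraries, on 83 to 168 reads there and 18 to 30 reads in control libraries, and it also passed the test with no filter (limma adjusted p = 0.000124). Its log2 change was 1.90 with a pseudocount of 0.1 and 2.10 with voom. Psmb10, which replaces Psmb7, was at 2.63, 2.00 and 2.34 FPKM in cisplatin libraries, against 2.73, 2.84 and 1.79 FPKM in control libraries, and its groups overlapped (log2 change -0.05, 95% interval -0.37 to 0.28). Psmb9, which replaces Psmb6, has no level here. Psmb8 was 9.45, 12.8 and 8.52% of Psmb5 in cisplatin libraries, against 2.02, 3.72 and 2.68% in control libraries. Psmb10 was 10.4, 8.36 and 9.12% of Psmb7 in cisplatin libraries, against 17.9, 20.7 and 12.1% in control libraries. The first ratio was higher in all 3 cisplatin libraries and the second lower in all 3. As means, Psmb8 over Psmb5 was 10.3 ± 2.25% in cisplatin and 2.81 ± 0.857% in control libraries (SD, n = 3 each), a difference of 1.89 in log2 ratio. Psmb10 over Psmb7 was 9.29 ± 1.03% in cisplatin and 16.9 ± 4.37% in control libraries, a difference of -0.83. The exact two-sided permutation test gave p = 0.1 for each of the 2 pairs, also after adjustment over both, which is the smallest p that 3 against 3 libraries allow. Psmb8 lies at chr17:34198195-34201454 of mm10 between Tap1 (chr17:34187556-34197225) and Tap2 (chr17:34204479-34216321), the genes of the transporter that carries peptides into the endoplasmic reticulum. Tap1 was at 2.87, 2.64 and 2.50 FPKM in cisplatin libraries, against 1.61, 1.52 and 1.51 FPKM in control libraries (log2 change 0.53 ± 0.0622 (SE), limma adjusted p = 1.31e-04). Tap2 was at 4.47, 4.16 and 3.67 FPKM in cisplatin libraries, against 2.69, 2.82 and 2.83 FPKM in control libraries (log2 change 0.43 ± 0.0717 (SE), limma adjusted p = 9.11e-04). The 3 neighbours were all higher in all 3 cisplatin libraries, and Erap1, the peptide-trimming peptidase encoded on chromosome 13, was lower (log2 change -1.26 ± 0.0974 (SE), limma adjusted p = 1.30e-05).

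**Figure D3:**
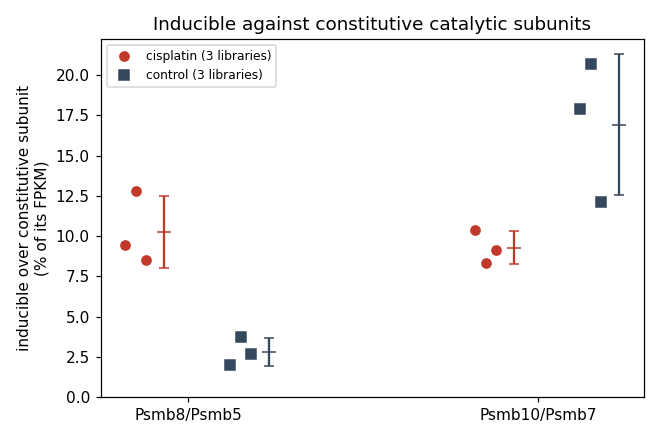
Level of an inducible catalytic subunit as a percentage of the FPKM of the constitutive subunit it replaces, in each cisplatin library (circles) and control library (squares), with mean and SD beside the points. Psmb8/Psmb5 is higher and Psmb10/Psmb7 lower in the 3 cisplatin libraries than in the 3 control libraries.

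Among the activators, 2 rose, 1 fell and 1 had no call, with a median log2 change of 0.19. Psme1 and Psme2 encode the 2 kinds of subunit of the cytosolic PA28 cap, which interferon induces. Psme1 was at 43.2, 44.5 and 46.3 FPKM in cisplatin libraries, against 48.4, 44.5 and 45.0 FPKM in control libraries, with groups that overlapped (log2 change -0.04, 95% interval -0.14 to 0.06). Psme1 passed as lower with a common FPKM sum and after quantile normalization. Psme2 was at 14.9, 14.4 and 15.4 FPKM in cisplatin libraries, against 10.5, 11.3 and 10.9 FPKM in control libraries, with all cisplatin values above all control values (log2 change 0.42 ± 0.0453 (SE), limma adjusted p = 8.04e-05). Psme1 stood above Psme2 in every library. Psme3, the nuclear PA28 subunit, was at 56.8, 58.3 and 86.2 FPKM in cisplatin libraries, against 34.4, 40.3 and 43.9 FPKM in control libraries. Cisplatin replicate 3 lay well above the other two cisplatin libraries, and all 3 lay above the control range (log2 change 0.73 ± 0.165 (SE), limma adjusted p = 0.00446). Without that library the log2 change of Psme3 was 0.54 (limma adjusted p = 0.00231). Psme4, which encodes PA200, a nuclear cap, was at 14.6, 14.2 and 16.0 FPKM in cisplatin libraries, against 19.8, 19.7 and 18.97 FPKM in control libraries (log2 change -0.37 ± 0.0503 (SE), limma adjusted p = 3.10e-04). Psmf1, the inhibitor PI31, was at 4.39, 4.21 and 4.45 FPKM in cisplatin libraries, against 2.51, 2.17 and 2.34 FPKM in control libraries (log2 change 0.68 ± 0.0609 (SE), limma adjusted p = 2.80e-05). Psme4 was thus lower, and Psmf1 higher, in every cisplatin library than in any control library. Psme2b, the near-copy of Psme2, was at 5.41, 4.11 and 6.39 FPKM in cisplatin libraries, against 1.90, 1.77 and 1.82 FPKM in control libraries (log2 change 1.14 ± 0.128 (SE), limma adjusted p = 1.01e-04). Reads of Psme2 and Psme2b may have been split between them, so both values are uncertain.

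The assembly chaperones did not move as one group. Psmg4, a chaperone of alpha ring assembly, had the most negative change among those of the 20S core, at 60.1, 60.2 and 54.7 FPKM in cisplatin libraries, against 75.6, 76.1 and 75.4 FPKM in control libraries (log2 change -0.37 ± 0.0425 (SE), limma adjusted p = 1.10e-04). Psmg2, which assists the same step, had the most positive, at 13.1, 12.9 and 13.7 FPKM in cisplatin libraries, against 11.3, 9.90 and 10.3 FPKM in control libraries (log2 change 0.31 ± 0.0551 (SE), limma adjusted p = 0.00126). Groups were apart in both. Psmg1, the partner of Psmg2, was at 8.42, 7.60 and 7.32 FPKM in cisplatin libraries, against 8.60, 6.82 and 7.97 FPKM in control libraries, and Psmg3, the partner of Psmg4, was at 3.41, 4.26 and 3.48 FPKM in cisplatin libraries, against 3.46, 4.00 and 3.34 FPKM in control libraries. Both overlapped between groups, so in each of the 2 pairs 1 partner was called and 1 was not, and the difference between partners was not tested. Among the chaperones of the 19S base, Psmd9 was at 4.59, 4.45 and 4.14 FPKM in cisplatin libraries, against 5.25, 4.98 and 5.32 FPKM in control libraries (log2 change -0.20 ± 0.0565 (SE), limma adjusted p = 0.0131). Psmd5 was at 8.70, 9.05 and 10.6 FPKM in cisplatin libraries, against 10.3, 11.7 and 12.0 FPKM in control libraries; it passed as lower although the groups overlapped through cisplatin replicate 3 (log2 change -0.24 ± 0.0841 (SE), limma adjusted p = 0.0318), and it lost the call without cisplatin replicate 1 or 2 or control replicate 2 or 3. Psmd10, known as gankyrin, was at 25.1, 25.9 and 26.1 FPKM in cisplatin libraries, against 25.2, 25.0 and 22.6 FPKM in control libraries with no call and groups that overlapped. Psmc3ip, which is no subunit, averaged 44.4 ± 1.50 FPKM in cisplatin and 23.8 ± 0.863 FPKM in control libraries (SD, n = 3 each) (log2 change 0.87 ± 0.0414 (SE), limma adjusted p = 1.21e-06).

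Some levels are uncertain because of sequence shared with other loci. RefSeq lists 6 pseudogenes with symbols of Psma5, Psmb5, Psmb6 and Psmb7, and the sources used here do not say how the authors counted reads that match more than 1 place. The spans of 14 of 47 members overlap another gene, in 8 cases a protein-coding one. These 8 are Psmd10, Psme1, Psme4, Psma4, Psmd1, Psmf1, Psmc3ip and Psme2b, the last 3 with large positive changes. The same sources do not say whether counting used strand.

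Genes that act with the proteasome outside the naming rule moved in both directions. Of 32 in the list, 31 were listed and tested, Paaf1 being the exception. Of these 31, 10 rose, 13 fell and 8 had no call, with a median log2 change of -0.09. The background is as wide, with 40.1% of all 11449 tested genes called higher and 41.1% lower. Pomp, the maturation factor of the core, was at 21.0, 18.9 and 18.6 FPKM in cisplatin libraries, against 19.3, 19.4 and 18.7 FPKM in control libraries, without a call (log2 change 0.02, 95% interval -0.10 to 0.15). Adrm1, a ubiquitin receptor of the 19S particle, was also without a call (log2 change 0.07, 95% interval -0.04 to 0.18). Usp14 and Uchl5, deubiquitinases that dock on the particle, rose by 0.17 and 0.22 on the log2 scale. Both lost their call with a common FPKM sum, and Usp14 also with voom and without cisplatin replicate 1 or 3 or control replicate 2 or 3, at log2 changes of 0.12 to 0.16 under these 5 settings. Nfe2l1, the transcription factor that raises subunit genes, was at 68.5, 71.3 and 65.5 FPKM in cisplatin libraries, against 91.7, 92.2 and 91.1 FPKM in control libraries (log2 change -0.42 ± 0.0369 (SE), limma adjusted p = 2.65e-05). Of the 2 enzymes that process the Nfe2l1 protein, the protease Ddi2 had no call (log2 change -0.11, 95% interval -0.23 to 0.01), and the deglycosylase Ngly1 was at 0.670, 0.481 and 0.642 FPKM in cisplatin libraries, against 1.76, 1.73 and 1.52 FPKM in control libraries (log2 change -0.74 ± 0.0732 (SE), limma adjusted p = 4.89e-05). Ngly1 passed the filter only through the control libraries, its test with no filter gave a limma adjusted p of 7.88e-05, and its log2 change was -1.35 with a pseudocount of 0.1 and -1.58 with voom. Ddi2 passed as lower with a common FPKM sum, with voom and without control replicate 2 (log2 change -0.15). Nfe2l2, the related factor of the oxidative stress response, was at 69.3, 68.0 and 74.8 FPKM in cisplatin libraries, against 36.8, 36.4 and 35.4 FPKM in control libraries (log2 change 0.94 ± 0.0429 (SE), limma adjusted p = 1.01e-06). Nfe2l1 and Nfe2l2 thus changed in opposite directions, with no overlap of groups in either. Zfand2a, an arsenite-inducible protein that associates with the particle, had the most positive change of the list, at 43.0, 42.8 and 40.5 FPKM in cisplatin libraries, against 9.81, 9.03 and 9.72 FPKM in control libraries (log2 change 2.03 ± 0.0452 (SE), limma adjusted p = 8.23e-08). Nploc4, a cofactor of the unfoldase Vcp, and the shuttle factor Ubqln4 came next after Nfe2l2 on the log2(FPKM + 1) scale, with log2 changes of 0.65 and 0.58. By the fold of means Tap1 (1.73) came before Nploc4 (1.58) and Ubqln4 (1.55). On the log2(FPKM + 1) scale the most negative changes after Erap1 were those of Akirin2, Zfand5 and Stat3, while by the fold of means Ngly1 (0.358) came before Akirin2 (0.454). Akirin2, which takes proteasomes into the nucleus, was at 8.11, 6.64 and 9.57 FPKM in cisplatin libraries, against 17.6, 18.3 and 17.7 FPKM in control libraries (log2 change -1.06 ± 0.109 (SE), limma adjusted p = 5.84e-05). Zfand5, which stimulates proteasome activity, and the transcription factor Stat3 had log2 changes of -0.83 and -0.83.

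**Figure D4:**
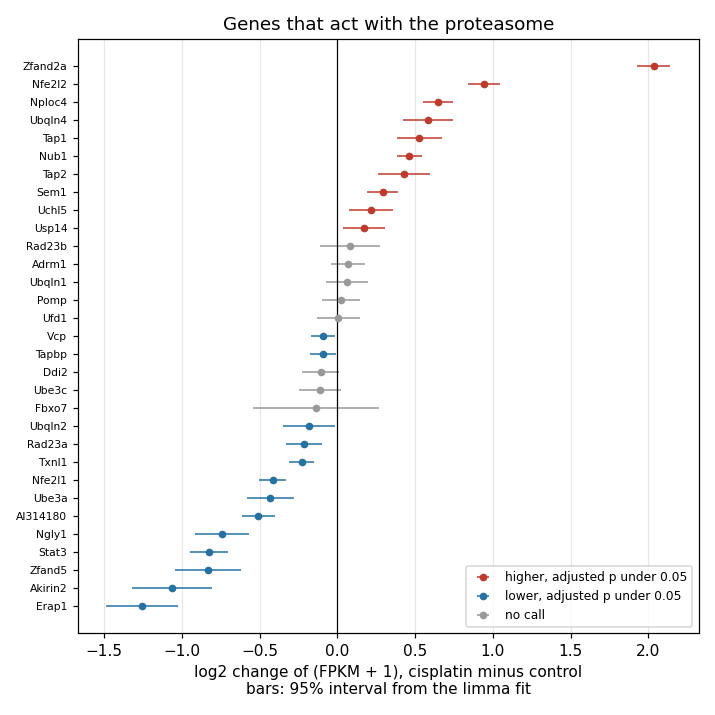
Log2 change of (FPKM + 1), cisplatin minus control, for 31 genes that act with the proteasome outside the naming rule, with the 95% interval of the limma fit as bars. Zfand2a lies farthest to the right at 2.03 and Erap1 farthest to the left at -1.26.

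The authors' deposited table of ac4C peaks held 64 peaks in 37 of 47 members, against 65.6% of all genes tested in input RNA that hold a peak. The members without one were Psma2, Psmc1, Psmd6, Psmd11, Psmd12, Psmd13 and all 4 of Psmg1 to Psmg4. Genes with a peak had a median level of 28.0 FPKM among members and 8.26 FPKM among all genes, and the 10 members without a peak had a median of 28.8 FPKM. The authors' region class was CDS for 31 member peaks, exon for 18, three_prime_utr for 11 and five_prime_utr for 4. A class need not match the position in the gene. The three_prime_utr peak of Psmd2 at chr16:20652220-20655408, plus strand, lies nearer the start than the end of the span, chr16:20651122-20663414. The peak positions are those of the authors on mm10, and the outer ends can span introns: 45 of 64 member peaks (70.3%) were made of several blocks, against 44.0% of all 19049 peaks. Each peak carries a log2 difference between the treatments with an adjusted p, both the authors', from 1 comparison over all libraries. The file headers do not say which treatment stands on top in that difference, so it is given as positive or negative, not as higher or lower after cisplatin, and fold enrichment is that of immunoprecipitate over input. Of the 64 member peaks, 63 overlapped the RefSeq span of their gene. In the table, 7 more peaks that overlap a member span, some only in part, carry the name of another gene.

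Positive differences made up most of the member peaks. Of 64 member peaks, 44 (68.8%) were positive in the authors' deposited table at an adjusted p under 0.05, against 36.5% of all peaks. Negative ones were 6 of 64 (9.38%), against 9.62% of all peaks, and 14 were not differential. Level moves with this share: among peaks of genes with a mean of at least 20 FPKM, 33 of 45 member peaks (73.3%) were positive, against 57.4% of all 5792 such peaks. Block structure moves with it too: among peaks of several blocks 37 of 45 member peaks (82.2%) were positive, against 48.4% of all such peaks, and among peaks of 1 block 7 of 19 (36.8%), against 27.2%. Their part in the members' share was not tested beyond these values. At least 1 differential peak was held by 33 of 37 members with a peak, against 56.1% of 8797 genes with a peak. Among genes with a mean of at least 20 FPKM it was 24 of 24 members and 1813 of all 2019 genes. Members that rose in input RNA had 29 positive and 3 negative of 41 peaks, against 3122 positive and 718 negative of 7767 peaks of all genes that rose. Members that fell had 10 positive and 2 negative of 14 peaks, against 2268 and 656 of 6176 peaks of all genes that fell. Over the 64 peaks, the log2 difference and the input log2 change of the gene had a Pearson r of -0.14, a description over peaks that share genes and libraries.

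**Figure D5:**
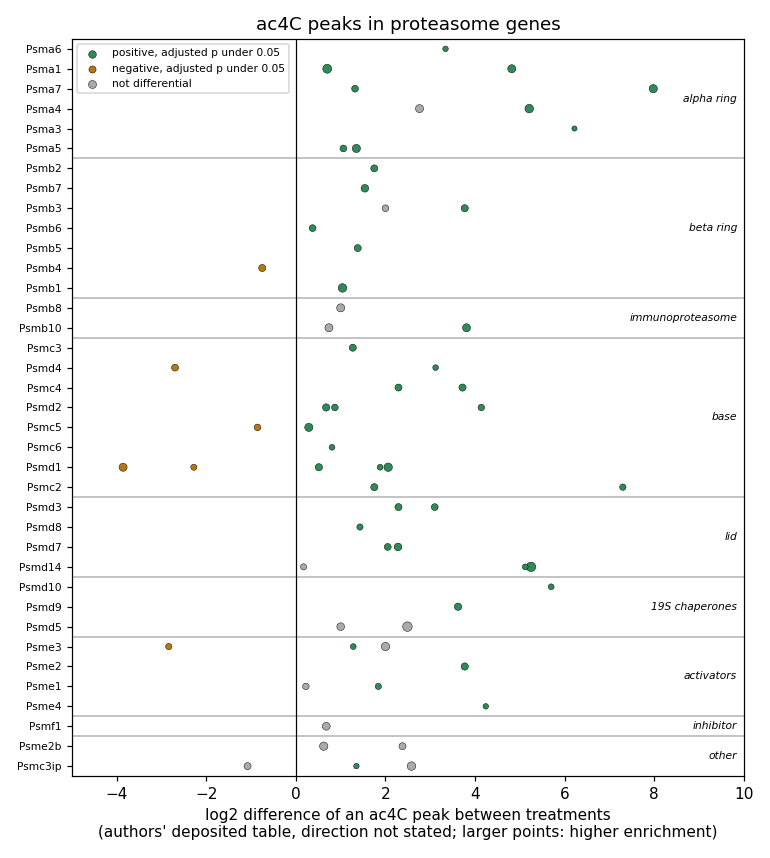
Log2 difference between treatments of each of the 64 ac4C peaks in 37 proteasome genes, as the authors deposited it without a stated direction, 1 row per gene and coloured by the authors' adjusted p and sign; larger points have higher enrichment. Of the 64 peaks, 44 are positive, 6 negative and 14 not differential, and all 6 negative peaks lie in Psmd4, Psmc5, Psmd1, Psme3 and Psmb4.

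By class, the alpha ring had 9 positive and 0 negative of 10 peaks, the beta ring 6 and 1 of 8, the base 14 and 4 of 18, the lid 7 and 0 of 8 and the activators 4 and 1 of 7 in the authors' deposited table. Of all peaks 36.5% were positive and 9.62% negative, and of those in genes of at least 20 FPKM 57.4% and 13.6%. In the alpha ring the largest differences past an adjusted p of 0.05 in the authors' deposited table were 7.98 in Psma7 at chr2:180036969-180037840 (exon, log10 adjusted p -37.2), 6.22 in Psma3 at chr12:70988450-70993046 (CDS) and 5.21 in Psma4 at chr9:54953407-54954993 (CDS). Their fold enrichments were 14.1, 1.25 and 19.2, and that of the Psma3 peak was the lowest of any member peak. Psma7 rose, Psma3 fell and Psma4 had no call in input RNA. In the beta ring the largest past the authors' adjusted p of 0.05 were 3.77 in Psmb3 at chr11:97703399-97707029 (exon), 1.75 in Psmb2 at chr4:126677659-126684141 (five_prime_utr) and 1.54 in Psmb7 at chr2:38640146-38643968 (exon), all in genes that rose. The 1 negative peak of the ring, at -0.75 in Psmb4, lay in the authors' deposited table at chr3:94884418-94884938 (CDS). In the lid the largest past that p in the authors' deposited table were 5.25 and 5.12 in Psmd14, at chr2:61760701-61761207 and chr2:61763843-61764964 (both CDS), and 3.10 in Psmd3 at chr11:98685957-98690568 (exon). The first Psmd14 peak had a fold enrichment of 49.4 and the second 1.89, so peaks of like difference within 1 gene differed widely in enrichment.

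In the base the largest positive difference past that p in the authors' deposited table was 7.30 in Psmc2 at chr5:21795100-21795957 (exon), followed by 4.14 in Psmd2 at chr16:20661910-20663145 (three_prime_utr). The most negative was -3.86 in Psmd1 at chr1:86111052-86118587 (CDS). Psmd1 held 5 peaks, the most of any member. Of these, 3 were positive in the authors' deposited table, with log2 differences of 2.06, 1.88 and 0.51, and 2 were negative, at -3.86 and -2.28, the second at chr1:86130653-86132784. The 2 negative peaks stood next to each other along the gene, between positive ones. Psmc5 held 1 negative peak, at -0.86 in chr11:106256154-106261278, and 1 positive, at 0.29 in chr11:106261910-106263120, both CDS in the authors' deposited table. Psmd4 held 1 positive peak, at 3.12 in chr3:95032754-95032933, and 1 negative, at -2.70 in chr3:95034976-95035095, both of class exon in the authors' deposited table. Psme3 held 1 positive CDS peak, at 1.28 in chr11:101319935-101320743, and 1 negative three_prime_utr peak, at -2.84 in chr11:101322941-101323120, in the authors' deposited table. These 4 genes were the members with differential peaks of both signs.

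Among the other classes, the authors' deposited table gave 5.70 for Psmd10 at chrX:140949298-140952406 and 3.62 for Psmd9 at chr5:123228320-123228560, while the 2 peaks of Psmd5 were not differential. Fold enrichment was 1.86 in the Psmd10 peak and 6.32 in the Psmd9 peak. The activators Psme4, at chr11:30845210-30847473, and Psme2, at chr14:55587501-55587888, had differences of 4.24 and 3.77 in the authors' deposited table, at fold enrichments of 1.57 and 5.71. Of the immunoproteasome genes, Psmb10 had 1 positive peak of 2, at 3.81 in chr8:105935795-105936124. That peak passed narrowly (log10 adjusted p -1.37 in the authors' deposited table) and not at 0.01, in a gene with 66 to 111 reads per input library. The 1 peak of Psmb8, at chr17:34200779-34200898, was not differential. Psmb9, without a row in the input table, had 1 peak at chr17:34182138-34182318, which was not differential either (log2 difference 2.00, log10 adjusted p -0.185 in the authors' deposited table). The peaks of Psmf1 and Psme2b were not differential, and Psmc3ip had 1 positive peak of 3, at 1.35 in chr11:101092874-101093695.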

How the data were processed

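Per the labels' protocols, total RNA was depleted of ribosomal RNA, fragmented, divided into input and anti-ac4C fractions and made into strand-specific paired-end libraries. Per the submitters' processing notes, the tools were HISAT2, HOMER, fastp and FastQC and the build was mm10. The deposited FPKM values are the authors', one per gene and input library. The authors' deposited table also gives a log2 fold change, a p-value and an adjusted p-value per gene. The deposited peak table holds the authors' fold enrichment (a ratio of immunoprecipitate over input), log2 difference and log10 p scores, which are the authors' scores per peak; coordinates were changed to count from 1.

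FPKM steps gave whole reads for 14852 of 14852 genes (100%, tolerance 0.0001). The filter kept genes that reached 1 FPKM in 3 of the 6 input libraries. Values of log2(FPKM + 1) were fitted in R 4.3.3 by limma 3.58.1 (lmFit, then eBayes with trend), cisplatin minus control, with Benjamini-Hochberg adjustment over all 11449 genes at 0.05; every adjusted p of a gene in input RNA comes from this fit unless another source is named. The fit was tested on simulated data, with planted changes that were all larger than the median size of the members' changes. That simulation gave every gene and group the same spread. It therefore does not check calls of smaller changes or an unequal spread between groups. Ratios of subunits were compared with exact permutation tests in SciPy 1.17.1. RefSeq (GRCm38.p6) gave gene spans and promoters, and all 47 members matched. Deviations of same-numbered libraries of the 2 groups correlated at 0.097, -0.12 and 0.043, so the values gave no sign of pairing. Such correlations cannot exclude it, and the labels do not say that the numbers pair the libraries. The members, classes and gene lists were chosen with earlier results of these data known. All genes of the rule may be named; values per library are given for the immunoproteasome genes, activators, catalytic subunits, the extremes of each class and members whose call is unstable or whose groups overlap. Psmd11, Psmc1 and others beyond these were added after their values were seen. Alternatives covered the pseudocount, the filter, the scaling, the replicate block, each library left out, voom on recovered reads, the authors' table and the peak threshold.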

Additional observations from a re-analysis of the deposited data

How the results depend on the processing

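Between 23 and 28 members rose and 9 to 15 fell under the 14 alternatives. Of all genes tested under them, 34.7 to 43.5% rose and 32.6 to 46.1% fell. In every alternative that tested them, 30 of 47 members kept their direction and side of the threshold. Of all genes, 9303 passed, against 5934 with a filter at 5 FPKM, where fewer were tested (7230, against 11449), and 7741 to 8666 with 1 library left out. With the replicate block 27 members rose, 10 fell and 9276 of all genes passed. Psmd14 lost its call under the block, and the labels do not say that the numbers pair the libraries. With 1 library left out, 24 to 27 members rose and 9 to 10 fell. With a common FPKM sum the median log2 change of all tested genes was -0.087, and class medians were 0.095 for activators, -0.051 for the alpha ring, 0.29 for the base, 0.40 for the beta ring and 0.14 for the lid. After quantile normalization they were 0.093 for activators, -0.14 for the alpha ring, 0.14 for the base, 0.34 for the beta ring, 0.62 for the immunoproteasome and 0.086 for the lid. With voom on recovered reads they were -0.016 for the alpha ring, 0.33 for the base, 0.98 for the immunoproteasome and 0.17 for the lid. The immunoproteasome median, over 2 genes, was 0.92 with a pseudocount of 0.1 and 1.04 in the authors' deposited table, and -0.11 to 0.52 with 1 library left out, where Psmb8 was not tested without any 1 cisplatin library. With 1 library left out the median of the alpha ring was 0.012 to 0.075 and that of the lid 0.21 to 0.29. Signs turned only for genes without a call, except that Psma4 passed as lower after quantile normalization (-0.16). With a common FPKM sum the log2 change was -0.016 for Psmd10, -0.088 for Psmg1, -0.044 for Psmg3, -0.051 for Psma4, -0.072 for Pomp and -0.028 for Adrm1. After quantile normalization it was -0.017 for Psmd10, 0.066 for Psmb10 and -0.043 for Pomp. With voom it was -0.061 for Psmg1, -0.0036 for Psmg3, -0.016 for Psma4 and -0.040 for Pomp, and the authors' deposited table gave -0.0029 for Psmg1. With 1 library left out, Psmg1 was at -0.082 to 0.065, Psmg3 at -0.046 to 0.096, Psmb10 at -0.19 to 0.039 and Pomp at -0.029 to 0.054. The cause of these shifts was not tested, other than the number of genes tested where given. Members with a differential peak numbered 33, and 30 at an adjusted p of 0.01, 29 with a log2 difference of at least 1 in size and 34 by overlap with gene spans. Psmb8 and Psme2b had the fewest reads of the members over the 6 libraries, and 3 libraries a group cannot give an exact p under 0.1.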
